A study of Mus musculus with 7 samples.

Results

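The account covers 6 nuclear genes of mitochondrial energy metabolism in mouse soleus: the cytochrome oxidase subunit genes Cox4i1, Cox5b, Cox6a2 and Cox8a, the malate dehydrogenase gene Mdh2 and the transcription factor gene Tfam. They were picked by symbol in the platform annotation and are 6 of the 203 genes named on the array. Each had 1 spot, and all 6 had a value in all 7 samples. Soleus is a postural hindlimb muscle rich in slow, oxidative fibres. The 7 samples come from wild-type 129/SV mice kept as cage controls, in 1 group with no contrast, and no age is given. Replicate 5 has C16 in its title where the other 6 have C15, and the labels do not explain these codes. Nothing in the labels ties the samples to separate animals, so p-values measure only the spread between these samples, which may be partly technical. The RNA came from sections of the whole muscle belly, in which fewer fibres of a type and less RNA per fibre cannot be told apart.

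Cytochrome oxidase is complex IV of the respiratory chain, which passes electrons from cytochrome c to oxygen and pumps protons across the inner mitochondrial membrane. Its catalytic core is encoded in mitochondrial DNA, and the smaller subunits around it, including the products of the Cox genes here, are encoded in the nucleus. Cox4i1 and Cox8a are the widely expressed isoforms of their subunits, and Cox6a2 is the isoform of heart and skeletal muscle. Mdh2 makes the citrate cycle enzyme that oxidizes malate to oxaloacetate in the matrix, and Tfam makes the protein that packages mitochondrial DNA and starts its transcription.

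Promoter sequence was found for 4 of the 6 genes, Cox5b, Cox8a, Mdh2 and Tfam, in RefSeq windows of the C57BL/6J reference, build GRCm38.p6, each with 250 bases before and 50 after the gene's start. Of these, 3 are shown, in their upstream part, because they hold a motif there. The motifs were TGCGCA (part of the site of nuclear respiratory factor NRF-1), CCGGAAG (a core of ETS-family sites, to which the factor GABP belongs) and the palindrome TCTCGCGAGA, searched on both strands and marked in capitals. No marked copy overlaps one of another motif. The palindrome was taken from the Mdh2 window itself, as part of the longest string that occurs 3 times there, and all 3 motifs were chosen with the sequences in view. The stretch of Cox5b is at chr1:36691367-36691486 (plus strand), that of Tfam at chr10:71238045-71238164 (minus strand) and that of Mdh2 at chr5:135778399-135778648 (plus strand), all in GRCm38.p6 and ending at the base before the gene's start.
Cox5b: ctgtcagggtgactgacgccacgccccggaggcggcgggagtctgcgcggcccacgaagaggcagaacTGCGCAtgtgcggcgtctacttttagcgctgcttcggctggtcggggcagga
Tfam: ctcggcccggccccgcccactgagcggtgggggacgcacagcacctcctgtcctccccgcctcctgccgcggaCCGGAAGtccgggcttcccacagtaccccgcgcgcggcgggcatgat
Mdh2: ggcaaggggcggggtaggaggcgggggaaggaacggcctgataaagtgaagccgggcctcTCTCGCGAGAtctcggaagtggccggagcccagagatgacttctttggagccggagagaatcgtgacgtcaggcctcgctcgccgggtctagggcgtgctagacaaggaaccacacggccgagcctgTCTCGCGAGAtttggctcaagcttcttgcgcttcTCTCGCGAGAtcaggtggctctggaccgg

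The Mdh2 window held 3 copies of TCTCGCGAGA, starting at -190, -63 and -29 relative to the gene's start. Of 32851 promoter windows, 0.466% held at least 1 copy, and 2 windows held 3. The other of these is the window of Styxl1, which lies on the opposite strand and shares 237 of its 300 bases with that of Mdh2, so both windows count the same copies. Cox5b had 1 TGCGCA, at -52, and Mdh2 had 1 at 9 bases into the gene, against 7.76% of all windows with at least 1. Tfam had 1 CCGGAAG, at -47, and Cox8a had 2, starting at -5 and 33, against 8.86% of windows with at least 1. These matches describe letters only and were not set against the signals.

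The 5 genes other than Tfam gave a clear signal in every sample. The labels describe reverse transcription of 4 µg total RNA with gene-specific primers and a radioactive nucleotide, 1 sample per array. The deposited value is a spot's share of the signal of its array, given here in percent. It leaves out an unnamed spot and the 28S ribosomal RNA spot. Each array's 10th percentile, called the floor, ran from 0.02% in replicate 5 to 0.13% in replicate 1. A gene was called above the floor where it exceeded 2 times that value on all 7 arrays, which 44 of the 203 genes did. All 8 muscle fibre markers on the array were among them. So were 1 of 5 endothelial markers and 1 of 2 adipocyte markers, but 0 of 2 immune and 0 of 3 fibroblast markers. The summed fibre markers took 24.75% to 32.97% of the signal. The sums were 0.45% to 1.06% for endothelium, 0.43% to 0.70% for adipocytes, 0.05% to 0.43% for immune cells and 0.175% to 0.74% for fibroblasts. Primer and probe also set how bright a spot is, so the genes are not ranked against each other.

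Cox4i1, the largest of the nuclear subunits, had one of the steadiest signals. Its deposited values were lowest at 1.71% in replicate 1, had a median of 2.10% and were highest at 2.41% in replicate 2, with a mean of 2.07% ± 0.266 (SD, n = 7). Replicates 1 and 7 lay low, at 1.71% and 1.74%, and the other 5 lay between 2.09% and 2.41%. The coefficient of variation was 12.8%, against a median of 23.4% over the 44 genes above the floor, of which 4 had a smaller one. On the quantile-normalized log2 scale, which gives all arrays the same set of values, the SD of Cox4i1 was 0.12 against a median of 0.26, and 1 of the 44 genes had a smaller one. Without replicate 2, its highest sample, that SD was 0.08. Its rank among the 223 spots stayed between 12 and 16.

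Cox5b makes a matrix-facing subunit that binds zinc. Its signal ran from 1.53% in replicate 7 through a median of 2.39% to 3.13% in replicate 2, with a mean of 2.45% ± 0.527 (SD, n = 7). Replicate 7 was low, and replicates 2, 3 and 4 were the high ones at 3.13%, 2.75% and 2.86%. The coefficient of variation of 21.5% lay near the median of the genes above the floor. Cox5b ranked 9 among the spots in replicates 1, 2 and 3 and 16 in replicate 7.

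Cox6a2, the muscle isoform, varied the most of the 4 subunits in deposited values. It ran from 4.31% in replicate 1 through a median of 7.13% to 11.2% in replicate 3, a range of 2.60-fold, with a mean of 7.21% ± 2.40 (SD, n = 7). Replicates 3 and 4 were high at 11.2% and 9.14%, and replicates 1 and 7 were low at 4.31% and 4.77%. The coefficient of variation was 33.3%, and 33 of the 44 genes above the floor had a smaller one. In rank, Cox6a2 held place 7 in 5 of the 7 samples, place 4 in replicate 3 and place 5 in replicate 4. On the quantile scale its variation therefore comes from replicates 3 and 4 alone, and its SD of 0.34 was 0.20 without replicate 3. The 28S spot is among the ranked spots. It stood below Cox6a2 in replicates 3 and 4, at 3.88% and 5.35%, and above it in the other 5 samples, at 12.55% to 21.62%. With quantile normalization over named spots without 28S, the SD of Cox6a2 was 0.19.

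Cox8a makes a very small subunit in the membrane part of the enzyme. Its deposited signal ran from 0.46% in replicate 7 through a median of 0.55% to 0.60% in replicate 6, with a mean of 0.531% ± 0.0518 (SD, n = 7). The samples lay close together, within 1.30-fold, and 1 of the 44 genes above the floor had a smaller coefficient of variation than its 9.74%. The scale changes this picture. In quantile-normalized values its SD was 0.34, and 30 of the 44 genes had a smaller one. In log2 of the deposited values it was 0.14, and 1 had a smaller one. With each array's floor subtracted, the SD of Cox8a was 0.23. Cox8a lay from 3.85 times the floor in replicate 1 to 24.0 times in replicate 5, and its rank ran from 21 to 33.5.

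In deposited values, Mdh2 was high and low in other samples than Cox6a2. Its signal ran from 0.41% in replicate 3 through a median of 0.54% to 0.70% in replicate 6, with a mean of 0.551% ± 0.103 (SD, n = 7). Replicates 6 and 2 were high at 0.70% and 0.66%. Replicate 3, which had the most Cox6a2 signal, had the least Mdh2 signal. The coefficient of variation was 18.7%, and 9 of the 44 genes above the floor had a smaller one. On the quantile scale Mdh2 was instead lowest in replicate 7, at rank 31, and highest in replicate 2, at rank 22. Replicate 3 stood at rank 26.5.

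Tfam lay near the floor. Its values were 0.04% to 0.12%, with a median of 0.07%, and have 1 or 2 significant digits. They stood at 0.923 to 2.0 times the floor, and 0 of the 7 arrays exceeded 2 times. The highest values, 0.12% in replicate 1 and 0.11% in replicate 7, came from the arrays with the highest floors, 0.13% and 0.09%. No difference between samples could be read from Tfam, and a value near the floor does not show that the transcript was absent.

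**Figure D1:**
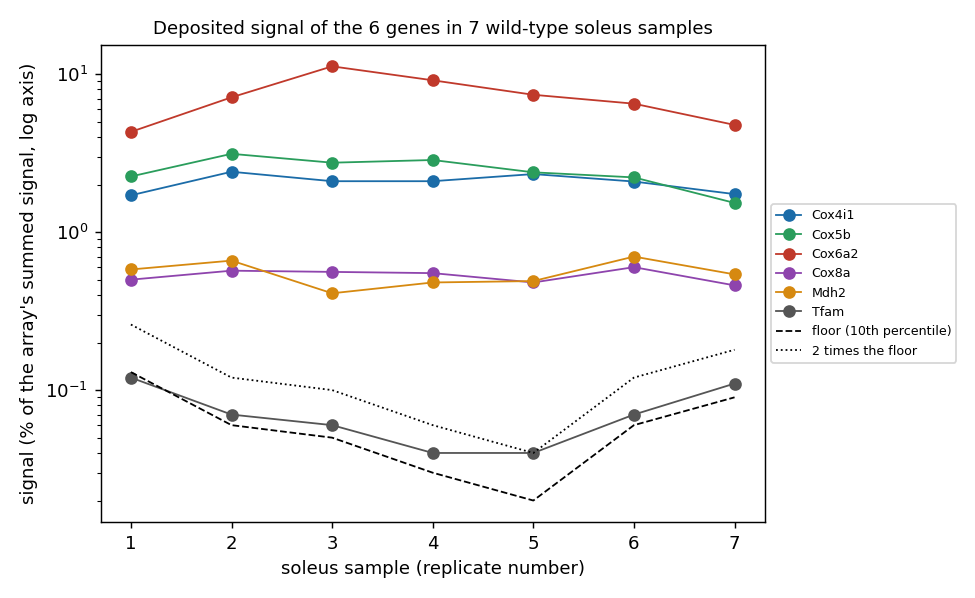
Deposited signal of the 6 genes in percent of the array's signal (log axis) in each of the 7 soleus samples, one point per sample, with the floor (dashed) and 2 times the floor (dotted). Lines join a gene's points and imply no order of the samples. Tfam follows the floor, from 0.12% in replicate 1 to 0.04% in replicates 4 and 5, while the other 5 genes stay above the dotted line.

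The 4 subunits together took 8.50% of the array's signal in replicate 7, 8.77% in replicate 1, a median of 12.6% and 16.61% in replicate 3 (mean 12.3% ± 2.97, SD, n = 7). The samples with the least subunit signal had the most signal in spots near the floor. Named spots near the floor held 30.07% of the signal in replicate 1 and 23.79% in replicate 7, against 9.31% to 15.61% in the other 5 samples. All values of an array share 1 sum, so the subunits were also taken as a share of the genes above the floor. On that base they still ran from 11.9% in replicate 7 to 19.5% in replicate 3 (mean 15.4% ± 2.55, SD, n = 7). Cox4i1 then had a coefficient of variation of 8.24%, Cox5b 19.2%, Cox6a2 25.6%, Cox8a 11.2% and Mdh2 24.1%.

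A ratio of 2 deposited values on the same array is not changed by multiplying that array by a constant, although its size depends on the probes. Cox8a over Cox4i1 had the smallest spread of the 10 ratios among the 5 genes above the floor when all 7 samples were used. Cox8a over Cox4i1 ran from 0.206 in replicate 5 to 0.292 in replicate 1, with an SD of 0.17 on the log2 scale. Over all 946 pairs of genes above the floor the median SD was 0.52, and 12 pairs had a smaller SD than this one. Without replicate 5 its SD was 0.11. Without replicate 7 it was 0.19 and that of Cox5b over Cox4i1 was lower, at 0.18, so the order of these ratios rests on single samples. Cox5b over Cox4i1 had an SD of 0.24, and 50 of the 946 pairs had a smaller one. This ratio was between 1.30 and 1.36 in replicates 1 to 4, and 1.03, 1.06 and 0.879 in replicates 5, 6 and 7.

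The ratios with Cox6a2 were wider than those of Cox8a and Cox5b over Cox4i1. Cox6a2 over Cox4i1 ran from 2.52 in replicate 1 to 5.33 in replicate 3, with a log2 SD of 0.39. Of the 946 pairs, 248 had a smaller SD. Replicates 3 and 4 stood at 5.33 and 4.35, and the other 5 samples lay between 2.52 and 3.18. Cox6a2 over Cox5b and Cox8a over Cox6a2 had SDs of 0.36 and 0.43, also under the median of 0.52 over the 946 pairs. Mdh2 over Cox5b, a ratio without Cox6a2, had an SD of 0.46. Mdh2 over Cox6a2 had the widest spread of the 10, with an SD of 0.68, and 657 of the 946 pairs had a smaller one. Mdh2 over Cox8a, by contrast, had an SD of 0.27, with 77 pairs below it, and 0.17 without replicate 3. The 6 ratios among the subunits had SDs of 0.17 to 0.43, and the 4 with Mdh2 had 0.27 to 0.68.

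**Figure D2:**
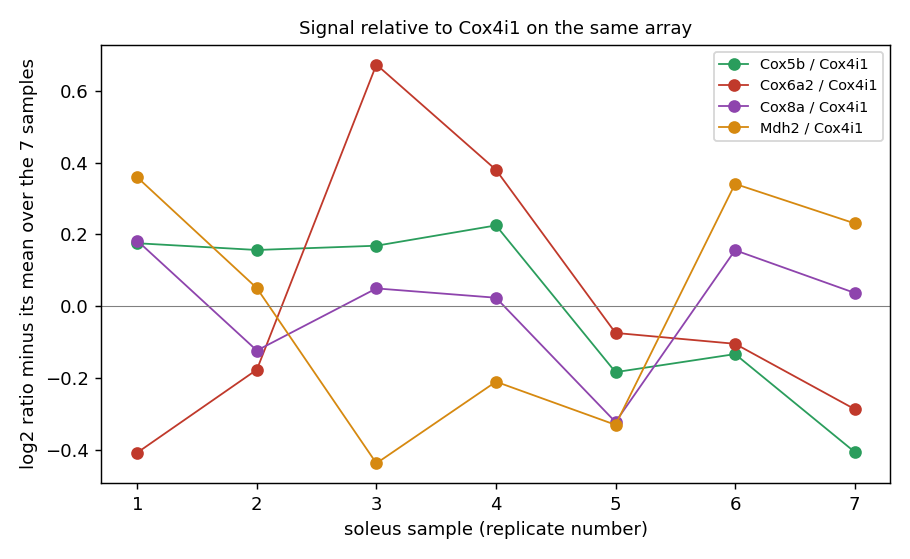
Log2 ratio of 4 genes to Cox4i1 on the same array, minus that ratio's mean over the 7 soleus samples, one point per sample, with no order implied by the lines. Cox8a has the smallest SD (0.17) although not the smallest deviation in every sample, while Cox6a2 is highest and Mdh2 lowest in replicate 3.

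Whether the genes rose and fell together over the samples depended on the scaling of the arrays. On the quantile-normalized log2 scale, 0 of the 10 pairs passed the exact permutation test of Pearson's r after Benjamini-Hochberg adjustment over all gene pairs, as did 0% of the 20301 pairs tested with r above 0. With 7 samples the smallest p in this family was 0.000198, and at least 81 pairs at that p would be needed for a call, while 36 reached it. The members' pairs could not reach that p, because equal values raise the smallest p possible. Cox6a2 had the same value on 5 arrays, Cox4i1 and Cox5b on 3 each, and Cox8a and Mdh2 on 2 each. The 0 of 10 therefore does not show a lack of covariation. At an unadjusted exact p under 0.05, 2 of the 10 pairs had r above 0, against 6.39% of all pairs. The median r of the 10 pairs was 0.387, against 0.0161 over the 903 pairs of genes above the floor (without Car3, a carbonic anhydrase with the same rank on all arrays). Values of r were above 0 in 8 of the 10 pairs, against 50.9% of those 903.

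Cox5b and Cox8a had the highest r on this scale, 0.811 (two-sided exact permutation p = 0.0274), which did not pass over all pairs (adjusted p = 0.378). By rank, rho was 0.879 (exact permutation p = 0.0155; 0.464 adjusted over all pairs). Without replicates 3 and 7, farthest from the median of Cox5b, r was 0.560, and with 1 replicate left out it ran from 0.637 to 0.958. Cox5b and Mdh2 gave r = 0.757 (exact p = 0.05 by permutation, 0.429 adjusted), a rho of 0.673 (exact p = 0.111), and r = 0.690 without the same replicates. For Cox6a2 with Cox8a, r was 0.745 (exact p = 0.0476 by permutation, 0.422 adjusted) and rho 0.674 (exact p = 0.167). Without replicates 3 and 4 no r exists for Cox6a2 on this scale, since the other 5 values are equal, so its correlations rest on those samples.

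The remaining 7 pairs had r from -0.424 to 0.545. Cox8a and Mdh2 gave 0.545 (exact permutation p = 0.206), Cox4i1 and Mdh2 0.419 (p = 0.333), Cox5b and Cox6a2 0.354 (p = 0.405), and Cox4i1 and Cox5b 0.328 (p = 0.502). Cox4i1 and Cox8a gave 0.0908 (exact permutation p = 0.898), and Cox6a2 and Mdh2 gave -0.0573 (p = 0.976). Cox4i1 and Cox6a2 gave -0.424 (exact permutation p = 0.429; rho = -0.233, p = 0.619), which was 0.408 without replicates 2 and 4. These values moved with single samples. Cox8a with Mdh2 was 0.150 without replicate 7, Cox5b with Cox6a2 was 0.0449 without replicate 3, and Cox4i1 with Cox5b was 0.0629 without replicate 2. The order of the pairs also depended on the set of spots normalized. Over named spots without 28S, Cox6a2 with Cox8a came highest at r = 0.782 (exact permutation p = 0.0476). Cox5b with Mdh2 then gave 0.722, Cox5b with Cox8a 0.657 (exact permutation p = 0.112) and Cox4i1 with Cox5b 0.646. Only 1 of the 10 pairs then had an unadjusted exact p under 0.05.

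In the deposited log2 values of all 7 samples the 6 subunit pairs had higher r than the 4 Mdh2 pairs. The subunit pairs had r from 0.482 to 0.721 with a median of 0.662. The Mdh2 pairs had a median of -0.0464, among them Cox6a2 and Mdh2 at -0.568 (exact permutation p = 0.185; rho = -0.714, p = 0.0881). The median over the 946 pairs above the floor was 0.123. None of the 10 passed after adjustment, 0 of 10 against 45% of all 20503 gene pairs and 4.23% of the 946 pairs above the floor, with r above 0. At an unadjusted exact p under 0.05 the count was also 0. Cox4i1 and Cox5b came highest at r = 0.721 (exact p = 0.0687 by permutation, 0.116 adjusted), with a rho of 0.775 (exact p = 0.0492). Without replicates 1 and 7 this r was 0.346, so it rests on those 2 samples. Leaving out the same 2 turned Cox4i1 with Cox6a2 from 0.667 to -0.439 and Cox4i1 with Cox8a from 0.482 to -0.435, below Cox4i1 with Mdh2 at 0.286. Cox5b with Cox8a went from 0.657 to 0.157 without replicates 2 and 7. Cox5b with Cox6a2, however, was 0.830 and Cox5b with Mdh2 was -0.815 without replicates 2 and 7. Without replicates 1 and 3, Cox6a2 with Cox8a was 0.470 and Cox6a2 with Mdh2 was -0.285. The higher r of subunit pairs in deposited values is thus not seen without replicates 1 and 7 for Cox4i1 with Cox6a2 and Cox8a. It remained for the pairs of Cox5b and Cox6a2 given here.

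With each array centred on its genes above the floor, the subunit pairs lay higher still. The subunit pairs had r from 0.792 to 0.908, with a median of 0.878, and the Mdh2 pairs -0.167 to 0.237, against a median of -0.0167 over the 946 pairs. On this scale 4 of the 10 pairs passed the exact permutation test after adjustment over all gene pairs, against 35.4% of all pairs and 3.7% of pairs above the floor. They were Cox4i1 with Cox6a2 (r = 0.908, adjusted exact p = 0.0237) and Cox4i1 with Cox5b (r = 0.894, 0.0220), then Cox5b with Cox8a (r = 0.885, 0.0376) and Cox6a2 with Cox8a (r = 0.872, 0.0415). Their rho was 0.821, 0.857, 0.857 and 0.714, with adjusted exact permutation p of 0.0854, 0.0670, 0.0670 and 0.173, so none passed by rank. With the 2 samples farthest from the median of the first gene left out, r was 0.767, 0.863, 0.642 and 0.812. Unadjusted, the exact permutation p of these 4 pairs was 0.00536, 0.00476, 0.0113 and 0.0133. The adjustment is milder where more pairs on the array have small p. With each array divided by its median, a smaller exact permutation p of 0.00159 for Cox4i1 with Cox5b gave 0.102 adjusted. The 4 calls thus also depend on the other pairs of the array. With the floor subtracted, the subunit pairs had a median r of 0.738 and the Mdh2 pairs 0.192, and 0 of 10 passed.

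Dividing each array by its median gave r of 0.871 to 0.984 for all 10 pairs, and all 10 had an unadjusted exact permutation p under 0.05. So did 12.4% of all pairs and 55.3% of pairs above the floor, with r above 0. The median r was 0.0930 over all pairs and 0.801 over pairs above the floor. The divisor, each array's median, ran from 0.06% to 0.20%, and its part in these values was not tested. None of the 10 passed after adjustment. The direction of Cox4i1 with Cox6a2 was below 0 on the quantile scale, with or without the trend in spot position, and above 0 as deposited, floor-subtracted, centred or with equal medians. The split between subunits and Mdh2 was itself not tested.

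**Figure D3:**
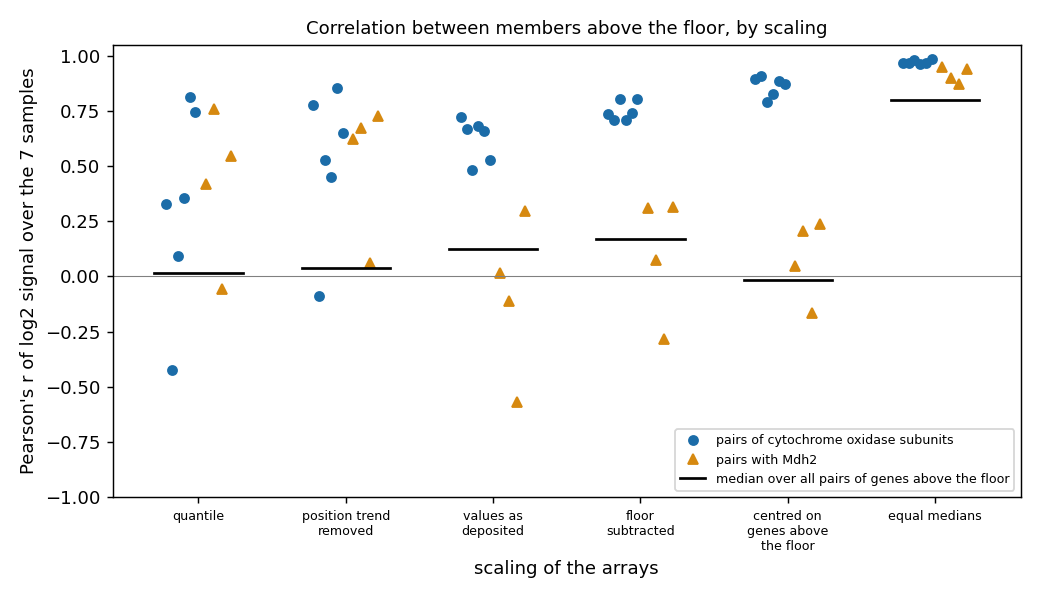
Pearson's r of log2 signal over the 7 soleus samples for the 6 pairs of cytochrome oxidase subunits (circles) and the 4 pairs with Mdh2 (triangles) under 6 scalings, with the median over all pairs of genes above the floor as a bar. Circles lie above triangles in the deposited, floor-subtracted, centred and equal-median values and are mixed with them on the quantile scale with or without the position trend. All 10 points lie above the bar with equal medians, where the bar itself is at 0.801.

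Genes with the most similar profile were named for each member as the 2 highest r on the quantile scale among 38 non-member genes above the floor, as a description. For Cox6a2 they were Myh7, the slow myosin heavy chain, at r = 0.950, and the glycolytic enzyme gene Gapdh at 0.918. In deposited values these were 0.956 and 0.959, and in centred values 0.972 and 0.979. Myh7 and Gapdh were both highest in replicate 3, at 12.64% and 13.46%, and lowest in replicate 7, at 6.82% and 7.49%. All 3 genes were high in replicates 3 and 4 and low in replicates 1 and 7.

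For Mdh2 the nearest were Fabp4, a fatty acid binding protein of adipocytes and capillaries, at r = 0.870, and Cd36, a fatty acid transporter, at 0.855. In deposited values r was 0.958 and 0.918, in centred values 0.921 and 0.738, and with the position trend removed 0.907 and 0.815. Fabp4 was lowest at 0.37% in replicate 3 and highest at 0.62% in replicate 6, and Cd36 likewise at 0.46% and 1.35%. These are the samples in which Mdh2 was lowest and highest in deposited values. The summed adipocyte markers, Fabp4 and Pparg, were also lowest in replicate 3 and highest in replicate 6, and Pparg lay near the floor. Whether adipocyte RNA had a part in the Mdh2 values was not tested. The Cd36 spot is a diagonal neighbour of the Mdh2 spot.

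For Cox8a the nearest were Pgk1, a glycolytic kinase gene, at 0.953 and Slc2a2, a glucose transporter gene, at 0.808. For Cox5b they were Hadh, an enzyme of beta-oxidation, at 0.929 and Slc2a2 at 0.847. These likenesses were smaller as deposited. Pgk1 gave 0.555, Slc2a2 gave 0.0144 with Cox8a and -0.244 with Cox5b, and Hadh gave -0.223 with Cox5b. When centred, Cox8a gave 0.856 with Pgk1 and 0.172 with Slc2a2, and Cox5b gave 0.331 with Hadh and 0.132 with Slc2a2. For Cox4i1 they were the glucose transporter gene Slc2a4 at 0.674 and 28S ribosomal RNA at 0.564, which were -0.206 and 0.0494 as deposited. The likenesses of Cox6a2 and Mdh2 were thus above 0.8 on both scales, and those of Cox4i1 and Cox5b were not. On the quantile scale the genes were picked for their high r, and for Cox6a2 that r rests on replicates 3 and 4. With the position trend removed, Cox6a2 had r = 0.786 with Myh7 and 0.777 with Gapdh.

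**Figure D4:**
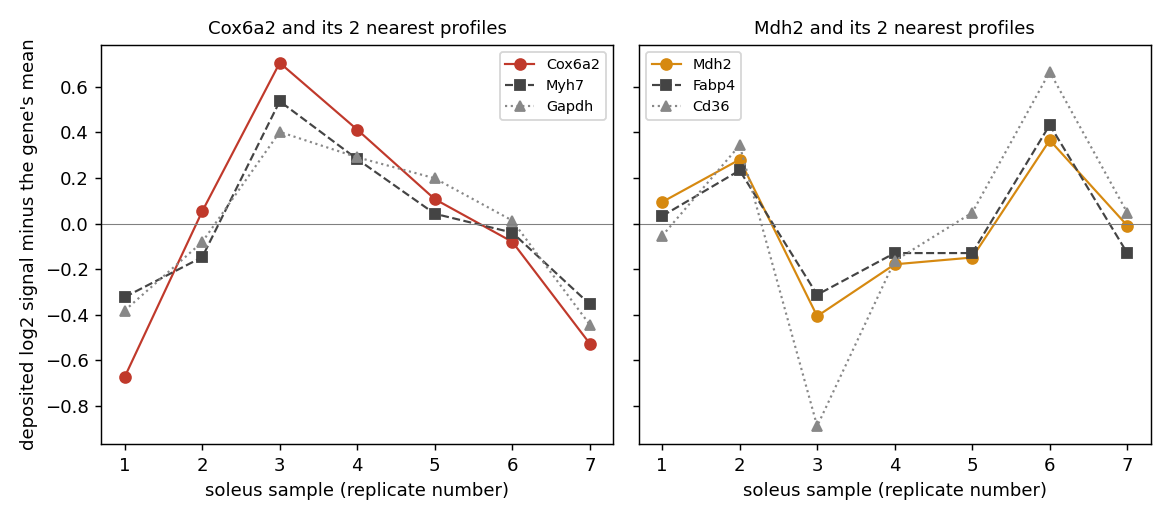
Deposited log2 signal minus each gene's mean over the 7 soleus samples, for Cox6a2 with Myh7 and Gapdh (left) and Mdh2 with Fabp4 and Cd36 (right), one point per sample, with no order implied by the lines. Replicate 3 is the highest of all samples for the 3 genes on the left and the lowest for the 3 on the right.

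Of a list of 73 other mitochondrial genes, 6 were on the array and 5 above the floor. Pdha1, a subunit of pyruvate dehydrogenase, was at 0.874% ± 0.165 (SD, n = 7), and Hadh at 0.674% ± 0.0907. The acyl-CoA dehydrogenases Acadl and Acadm were at 0.494% ± 0.0838 and 0.256% ± 0.120, and the uncoupling protein Ucp3 at 0.320% ± 0.175. Cpt1b, which makes the muscle enzyme for entry of fatty acids into mitochondria, exceeded 2 times the floor on 6 of 7 arrays. Pdha1, Hadh, Acadl and Acadm were lowest in replicate 3, as Mdh2 was, at 0.62%, 0.52%, 0.41% and 0.13%, where Cox6a2 was highest. Ucp3 was lowest in replicate 5, at 0.17%, and Cpt1b in replicate 4, at 0.20%. Over all 44 genes above the floor, 15 (34.1%) were lowest in replicate 3.

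Of the 25 pairs of a member with 1 of these 5 genes, 0 passed the exact permutation test after adjustment on the quantile scale. At an unadjusted exact p under 0.05, 4 had r above 0 and 0 below, against 6.39% of all pairs with r above 0. They were Hadh with Cox5b (r = 0.929), Cox8a (0.764) and Mdh2 (0.853), and Acadm with Mdh2 (0.811). As deposited, the pairs with Mdh2 were 0.723 for Hadh and 0.847 for Acadm, and Hadh with Cox8a was -0.239. The median r of the 25 pairs was 0.215 on the quantile scale, -0.174 as deposited and -0.0307 when centred. Of the 17 listed glycolytic genes, 8 were on the array and 5 above the floor. Their 25 pairs with members had a median r of 0.116, 0.321 and 0.571 on the same scales. On the quantile scale 0 passed after adjustment. At an unadjusted exact p under 0.05, 2 had r above 0 and 0 below, against the same 6.39% of all pairs. The 2 were Gapdh with Cox6a2 and Pgk1 with Cox8a. Both, like Hadh with Cox5b, are nearest profiles picked above for their high r.

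Spots of members lay beside both bright and dim spots. The myoglobin spot, with a mean of 8.10% ± 0.991 (SD, n = 7), is a diagonal neighbour of both Cox4i1 and Cox5b. Cox8a lies diagonal to the desmin spot, at 2.10% ± 0.605, and Mdh2 lies beside Ldhb, at 2.55% ± 0.597, and Pdha1. Cox6a2 had 2 dim neighbours, Pfkfb2 at 0.0943% and Capn3 at 0.101%. With a quadratic trend in spot position removed, the median r of the 10 pairs was 0.636, against 0.0401 over pairs above the floor, with 0 passing. The part of neighbouring signal in the members' values was not tested.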

How the data were processed

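The authors deposited 1 linear ratio per spot and sample. Without spot 1M and the 28S spot, each column sums to between 0.9986 and 1.0002. No label says how images were read or background was treated. The platform annotation names a gene for 205 of 223 spots. Igf1 and Fn1 have 2 spots each, averaged on the log2 scale. Levels are the deposited ratio in percent. Covariation was computed after quantile normalization over all spots and log2 with no pseudocount. Pearson's r and Spearman's rho were tested with an exact two-sided permutation test (5040 pairings) and Benjamini-Hochberg adjustment over all gene pairs. The test was checked on simulated data. Alternatives were other scalings, floor subtraction, a pseudocount of 0.001, a position trend and leaving out each replicate. The members, lists and the rule for named genes (members, the 2 nearest profiles of each, listed mitochondrial genes above the floor, neighbouring spots) were chosen with earlier results of these data known. The files give no counts or background readings, so the number of arrays limits precision. Python 3.11.15, numpy 2.4.6 and pandas 2.3.3 were used. Of the value columns, 0 belong to no sample.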

Additional observations from a re-analysis of the deposited data

How the results depend on the processing

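The count of pairs past the threshold was 0 of 10 on the quantile scale and under every alternative run except centring on genes above the floor, where it was 4. With that centring 35.4% of all gene pairs passed with r above 0. The count was also 0 with any 1 replicate left out, which shows no stability: with 6 samples the smallest exact p is 0.00139, and 564 pairs would have to reach it, against 76 to 155 that did. The median r of the 10 pairs, 0.387, was 0.963 with equal medians, 0.809 when centred, 0.710 with the floor subtracted and 0.636 with the position trend removed, and ran from 0.285 to 0.536 with 1 replicate left out. The cause was not tested. For Cox4i1 and Cox6a2, r turned from -0.424 to 0.667 as deposited, 0.968 with equal medians, 0.908 when centred and 0.711 with the floor subtracted. For Cox5b and Mdh2 it turned from 0.757 to -0.110 as deposited, and for Cox6a2 and Mdh2 from -0.0573 to 0.871 with equal medians and 0.0617 with the position trend removed. With 1 replicate left out, r ran from -0.251 to 0.464 for Cox4i1 and Cox8a, from -0.0984 to 0.691 for Cox4i1 and Mdh2, turning below 0 without replicate 2, and from -0.339 to 0.127 for Cox6a2 and Mdh2, turning above 0 without replicates 1 or 2. With equal medians, the log2 SD was 0.82 for Cox4i1, 0.90 for Cox5b, 1.12 for Cox6a2, 0.72 for Cox8a and 0.58 for Mdh2. That of Cox4i1 was 0.28 when centred, and that of Tfam 0.63 as deposited and 0.56 when centred. As a share of genes above the floor, mean levels were 2.62% for Cox4i1, 3.10% for Cox5b, 0.677% for Cox8a and 0.710% for Mdh2, a smaller base by construction. With the floor subtracted, Cox8a was at 0.469% and Tfam at 0.01%. The arrays' floor limits what can be said of Tfam.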

Other observations

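Of 22 values examined for the members (6 levels as deposited, the same 6 on the quantile scale, and 10 ratios), 0 had 1 sample far from the other 6. The criterion was Dixon's, with a critical value of 0.568 for 7 samples. It can miss samples that lie apart together, such as replicates 3 and 4 for Cox6a2. The count of 0 does not show that results are free of single samples.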
